A study of Mus musculus with 2 samples.

Results

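The genes described here are the DNA replication and nucleotide synthesis genes, 53 genes chosen by symbol from the GENCODE M21 annotation, of 55536 gene entries in the tables. All 53 symbols were found once each. They were measured in limbs of B6NCrl mouse embryos at 12.5 days, as polyA plus RNA primed with oligo-dT, in a single group with 2 libraries labelled as biological replicates. Limbs of 88 embryos went into replicate 1 and those of 68 embryos into replicate 2, male and female together. Both libraries started from 10 ng RNA and contain ERCC spike-ins. Pooling removes differences between embryos, and the labels do not separate forelimb from hindlimb. No treatment, genotype or second age was given, so levels were compared between genes and between these 2 libraries only. Levels are the deposited TPM, a transcript abundance scaled to gene length and library depth.

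Before S phase the origin recognition complex (ORC), Cdc6 and Cdt1 load the ring-shaped Mcm helicase onto DNA, a step called licensing. The kinase of Cdc7 and Dbf4, together with Cdc45 and the GINS complex, then turns the loaded ring into a moving helicase. Polymerase alpha with its primase starts each strand, the clamp loader RFC places the sliding clamp PCNA, and polymerases delta and epsilon copy the DNA. RPA covers the exposed single strands, Fen1 and Lig1 join the lagging strand fragments, and ribonucleotide reductase and thymidylate synthase make the DNA precursors. Many of these genes are known targets of the E2F transcription factors, and in the growing limb bud they are used by its dividing cells.

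The tissue label was checked against 12 limb and skeletal genes, all of which reached 1 TPM in both libraries. Col2a1 (cartilage collagen) led at 385 ± 57.7 TPM, before the homeobox gene Msx1 at 375 ± 19.6 TPM and the cartilage factor gene Sox9 at 196 ± 1.40 TPM, and Hoxa13 was lowest at 26.5 ± 0.990 TPM (SD, n = 2, as in all values with ± here). Markers of other cells were present too: all 14 listed genes of red blood cells, muscle, epithelium, vessels, macrophages, Schwann cells and neurons reached 1 TPM, from Hbb-y at 7124 ± 2.38 TPM, Hba-x at 1241 ± 34.1 TPM and Actc1 at 326 ± 10.1 TPM down to Gata1 at 1.68 ± 0.198 TPM. In bulk RNA a gene with more RNA per cell and a gene used by more cells cannot be told apart. Expected counts of gene entries summed to 29633457 in replicate 1 and 30118921 in replicate 2, and the 53 genes took 0.697% and 0.710% of these reads. Each of the 53 rested on between 305.9 and 13277 expected reads per library.

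Promoters of 4 of the 6 Mcm helicase genes are shown because they hold matches to E2F words, the short sequence that E2F factors are known to bind. The searched words were TTTCCCGC, TTTCGCGC, TTTGCCGC and TTTGGCGC on either strand, in windows from 250 bases before to 50 bases after the annotated start. The sequences are from RefSeq (build GRCm38.p6), written in the direction of the gene, with matches in capitals. The 4 genes are those with the highest TPM among the members that hold a match. Mcm7 lies at chr5:138171834-138172133, minus strand, Mcm6 at chr1:128359656-128359955, minus strand, Mcm5 at chr8:75109259-75109558, plus strand, and Mcm3 at chr1:20820263-20820562, minus strand.
Mcm7: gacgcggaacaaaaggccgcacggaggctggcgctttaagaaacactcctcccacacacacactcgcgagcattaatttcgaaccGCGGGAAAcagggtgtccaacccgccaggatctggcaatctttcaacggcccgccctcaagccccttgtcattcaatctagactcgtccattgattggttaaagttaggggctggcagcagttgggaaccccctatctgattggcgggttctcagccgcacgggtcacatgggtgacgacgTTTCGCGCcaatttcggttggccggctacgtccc
Mcm6: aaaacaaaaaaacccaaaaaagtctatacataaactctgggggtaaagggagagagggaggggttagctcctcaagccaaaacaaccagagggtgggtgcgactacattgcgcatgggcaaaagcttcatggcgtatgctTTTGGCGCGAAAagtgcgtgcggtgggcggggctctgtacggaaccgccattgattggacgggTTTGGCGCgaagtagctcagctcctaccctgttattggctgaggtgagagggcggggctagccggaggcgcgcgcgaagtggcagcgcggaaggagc
Mcm5: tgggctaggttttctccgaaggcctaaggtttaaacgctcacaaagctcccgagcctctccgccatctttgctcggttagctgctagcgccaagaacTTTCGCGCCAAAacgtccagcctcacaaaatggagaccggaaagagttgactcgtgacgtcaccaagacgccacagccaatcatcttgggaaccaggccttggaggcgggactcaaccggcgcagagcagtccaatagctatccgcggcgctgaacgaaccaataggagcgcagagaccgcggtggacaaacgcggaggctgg
Mcm3: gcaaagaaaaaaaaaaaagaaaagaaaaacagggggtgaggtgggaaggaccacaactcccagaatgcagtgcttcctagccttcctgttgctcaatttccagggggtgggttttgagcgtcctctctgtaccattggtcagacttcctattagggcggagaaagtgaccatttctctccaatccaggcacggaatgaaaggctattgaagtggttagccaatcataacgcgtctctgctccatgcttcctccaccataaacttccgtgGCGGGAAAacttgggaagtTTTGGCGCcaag

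In Mcm5 the words TTTCGCGC and, on the other strand, TTTGGCGC overlapped in a single run that began 153 bases before the start. Mcm6 held the same kind of overlapping run at 110 bases before the start and a separate match at 47 bases before it. The window of Mcm2 held none of the words, and Mcm4 had no window in the table. Both matches of Mcm3 lay after the start, at 19 and 38 bases. Of the 53 genes, 44 had a window in the RefSeq table, and 15 of these 44 (34.1%) held at least 1 of the words, against 2.6% of all 27025 genes of that table and 4.78% of 10118 protein-coding genes at 1 TPM. The other members with a match were Pold1, Lig1, Rfc3, Orc3, Cdt1, Cdc6, Pole2, Pola1, Gins3, Mcm8 and Orc1. Rfc3 held 2 matches, at 10 bases before its start and at the start base, and the other 10 of these 11 held 1 each. Not all genes with high levels held a word, since none was found in the windows of Rrm2, Tyms, Pcna and Slbp.

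Another pair of words was searched beside E2F. CCAAT, the word bound by the factor NF-Y, was found in 26 of the 44 genes (59.1%), against 41.1% of all genes in the table and 43.4% of the protein-coding genes at 1 TPM. TTTGAA, which is known from promoters of genes of mitosis, was found in 8 of the 44 (18.2%), in 20.2% of all genes and in 14.1% of the protein-coding genes at 1 TPM. In a list of 32 mitosis genes, 27 had a window, and 20 of these held TTTGAA and 1 an E2F word. CCAAT was also found in 20 of these 27 (74.1%), a larger share than in the 44 members. A match here is a run of letters and was not tested for binding.

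**Figure D1:**
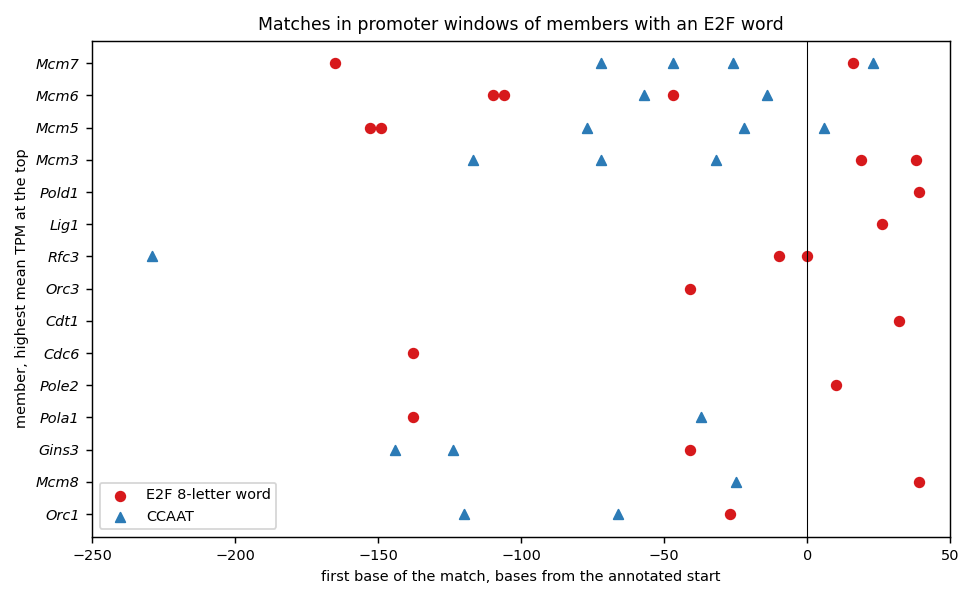
Position of each E2F word (red circles) and each CCAAT (blue triangles) in the promoter windows of the 15 members that hold an E2F word, in bases from the annotated start. The 44 genes have 53 windows. Matches from different windows of a gene share a row, each placed from the start of its own window. The 21 E2F matches lie from 165 bases before to 39 bases after the start, with a median position 27 bases before it.

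All 53 genes reached 1 TPM in both libraries, 52 reached 10 TPM and 24 reached 100 TPM. By comparison, 58.1% of 22028 protein-coding genes reached 1 TPM and 7.29% reached 100 TPM. A median of 88.5 TPM was found for the 53, against 21.7 TPM over protein-coding genes at a mean of 1 TPM. Among those protein-coding genes, 16 of the 53 stood above the percentile of 90 and 36 above the percentile of 75. At a percentile under 50 stood only Orc1, Mcm8 and Rrm2b.

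**Figure D2:**
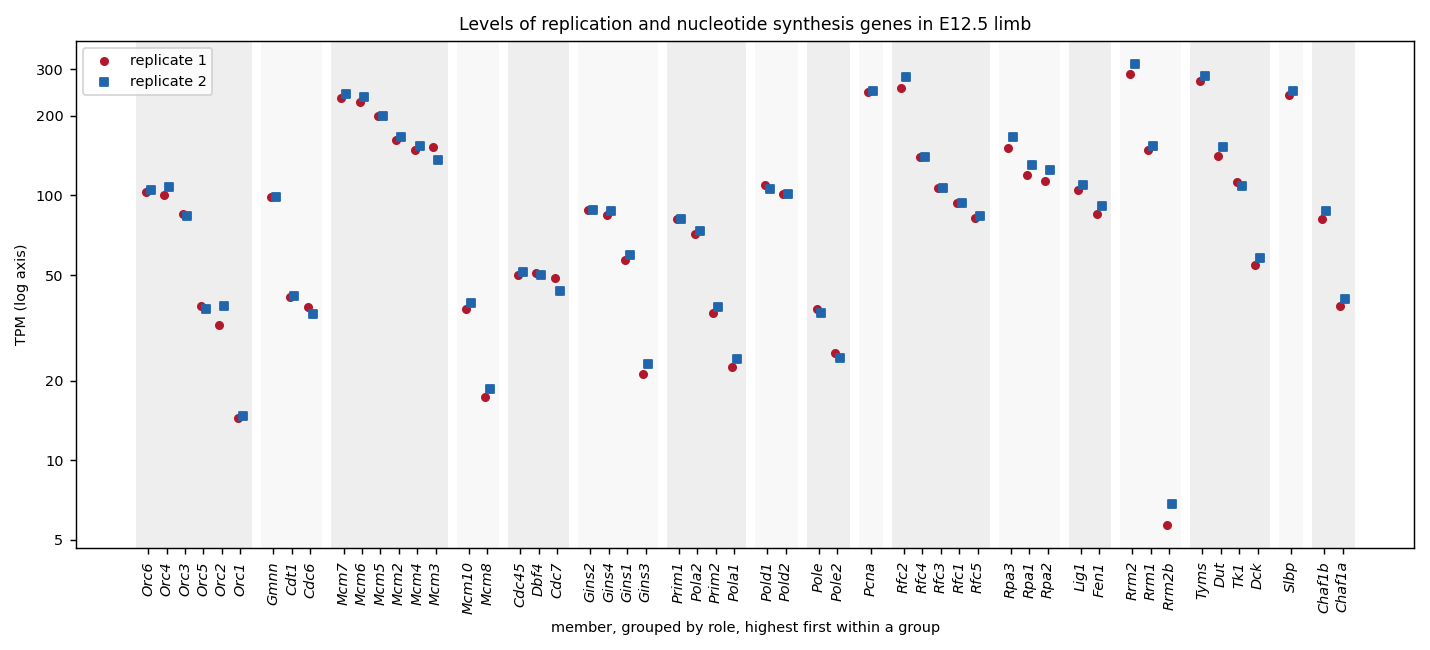
TPM of each of the 53 genes (log axis) in replicate 1 (red circles) and replicate 2 (blue squares), grouped by role. Replicates of a gene lie close together, while levels run from 6.26 TPM for Rrm2b to 300.4 TPM for Rrm2.

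The origin recognition complex spanned the widest range of the loading machinery. Orc6, its smallest subunit, had 103 TPM in replicate 1 and 105 TPM in replicate 2. Orc1, the ATPase subunit whose amount is known to vary over the cell cycle, had 14.4 and 14.7 TPM. Orc6 exceeded Orc1 by 2.83 and 2.84 on the log2 scale, or 7.14-fold, which was beyond the spread of 0.44 at the level of Orc1. As spread, here and for all pairs, stands the 95th percentile of the absolute log2 ratio of replicate 1 to replicate 2 among 500 genes with levels closest to that of the lower gene. A pair passed where both libraries exceeded it in the same direction. The spread covers how a gene repeats between the libraries. It does not cover errors in comparing TPM of different genes, such as those from the annotation or the transcripts counted. Orc4 stood at 103.9 ± 4.94 TPM, Orc3 at 84.2 ± 1.25 TPM, Orc5 at 37.8 ± 0.841 TPM and Orc2 at 35.4 ± 4.18 TPM. Orc6 and Orc4, and Orc5 and Orc2, did not differ beyond the spread, whereas the other neighbours in this order did. With the M4 annotation Orc6 stood at 79.4 ± 0.0990 TPM, below Orc4 at 109 ± 5.58 TPM and Orc3 at 89.0 ± 1.11 TPM. Exons of Orc2 overlap those of Nif3l1 on the opposite strand over 29.8% of their length. Whether counting used strand is not given, so reads of such overlaps may be shared.

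Among the licensing factors the inhibitor was the most abundant. Gmnn, which encodes geminin and blocks Cdt1, had 98.8 TPM in both libraries. Cdt1 had 41.2 and 41.8 TPM, and Cdc6, which works with it in loading, had 37.9 and 35.8 TPM. Gmnn over Cdt1 was 1.25 on the log2 scale as a mean of both libraries. Levels of RNA say nothing of the amounts of these proteins, which are known to be set by degradation.

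The 6 helicase genes stood close together and high. Mcm7 had 233 and 241 TPM, Mcm6 225 and 235 TPM, Mcm5 199 and 199.6 TPM, Mcm2 162 and 166 TPM, Mcm4 149 and 154 TPM, and Mcm3 152 and 136 TPM. These subunits form a ring with 1 copy of each. The highest exceeded the lowest 1.65-fold, the log2 ratio of Mcm7 over Mcm3 being 0.61 and 0.82 against a spread of 0.21. Of the 15 pairs of helicase subunits 10 passed the spread. Among the 5 pairs of neighbours in the order only Mcm5 over Mcm2 passed, at 1.22-fold. With the older GENCODE M4 annotation this order turned, with Mcm5 at 162 ± 0.403 TPM and Mcm2 at 170.4 ± 3.32 TPM. By M21 coding transcripts alone the range was wider, with Mcm6 2.08-fold above Mcm3. Mcm2 and Mcm4 then passed over Mcm3, at 1.48-fold and 1.39-fold, and Mcm7 over Mcm5 no longer passed. Mcm10, which helps the helicase start, stood lower, with 37.3 and 39.3 TPM, and Mcm8, known from recombination repair, had 17.3 and 18.6 TPM.

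The genes for firing of origins lay near 50 TPM. Cdc45, a part of the active helicase, had 49.9 and 51.2 TPM. Dbf4, the regulatory subunit of the Cdc7 kinase, had 50.9 and 50.1 TPM and Cdc7 itself 48.8 and 43.6 TPM. The 4 GINS genes encode 1 complex with equal copies but differed 3.99-fold. Gins2 had 88.1 and 88.3 TPM and Gins3 21.1 and 23.1 TPM, with Gins4 at 85.7 ± 2.10 TPM and Gins1 at 58.4 ± 1.56 TPM. Gins2 and Gins4 did not differ beyond the spread, and the other 5 pairs passed it. The places of Gins2, Orc4 and Tyms, like that of Rfc2, depend on which transcripts are counted, as described further on. Exons of Gins2 overlap those of Gse1, on the opposite strand, over 67.3% of their length.

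Polymerase subunits differed by enzyme. The primase gene Prim1 had 81.3 and 81.1 TPM, and Pola1, the catalytic subunit of polymerase alpha, had 22.5 and 24.2 TPM, a 3.48-fold ratio beyond the spread. Pola2 stood at 72.4 ± 1.27 TPM and Prim2 at 36.9 ± 1.38 TPM. Pold1, the catalytic subunit of polymerase delta, had 109 and 105.5 TPM and Pold2 101.0 and 101 TPM, which did not differ beyond the spread. Pole, its counterpart in polymerase epsilon, had 37.3 and 36.1 TPM and Pole2 25.5 and 24.3 TPM, and Pole over Pole2 passed at 1.47-fold, but at 1.15-fold by coding transcripts alone this pair did not pass.

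Genes of the clamp were among the highest. Pcna, the sliding clamp, had 246 and 248 TPM. Of its loader, Rfc2 had 254 and 279 TPM and Rfc5 82.1 and 84.0 TPM, with Rfc4 at 139.8 ± 0.141 TPM, Rfc3 at 107 ± 0.601 TPM and Rfc1, the large subunit, at 94.0 ± 0.120 TPM. By these gene totals 8 of 10 loader pairs passed the spread, but by M21 coding transcripts alone Rfc2 is the lowest of the 5. Rpa3, the smallest subunit of the single-strand binding protein, had 151 and 167 TPM, and Rpa2 had 114 and 125 TPM, with Rpa1 at 124.9 ± 7.64 TPM. Lig1, the DNA ligase of lagging strands, had 105 and 109 TPM, and the flap nuclease gene Fen1 85.4 and 91.5 TPM. Exons of Fen1 overlap the antisense gene Gm10143 over 78.8% of their length.

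The enzymes that make DNA precursors held both ends of the whole range. Rrm2, the S phase small subunit of ribonucleotide reductase, was the highest of the 53 genes, with 287 and 314 TPM, and rested on 11298 and 12411 expected reads. Rrm2b, the small subunit known as a p53 target that supplies precursors outside S phase, was the lowest, with 5.68 and 6.83 TPM on 305.9 and 313.9 reads. Rrm2 exceeded Rrm2b by 5.66 and 5.52 on the log2 scale, or 48.2-fold, against a spread of 0.56. The large subunit gene Rrm1, which pairs with either, had 148.5 and 153.5 TPM, 1.99-fold below Rrm2 and 24.2-fold above Rrm2b.

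Further precursor enzymes were also high. Tyms, which makes thymidylate, had 270.3 and 282 TPM. Dut, which removes dUTP, stood at 146 ± 8.12 TPM, the thymidine kinase gene Tk1 had 112 and 108 TPM, and the deoxycytidine kinase gene Dck had 54.7 and 57.9 TPM. Slbp, which binds the stem-loop of replication-dependent histone mRNAs, had 239.9 and 248 TPM. For the chromatin assembly factor CAF-1, which places histones behind the fork, Chaf1b had 81.4 and 87.7 TPM and Chaf1a 38.1 and 40.8 TPM, a 2.14-fold ratio beyond the spread. Exons of Chaf1a overlap those of Ubxn6 on the opposite strand over 52.5% of their length. Pseudogene entries that carry the symbol of a member had low levels, and copies under other names are not covered here. Pcna-ps2 had 1.86 and 2.05 TPM, Tyms-ps 0.06 TPM in both libraries and Pcna-ps1 was listed at 0.

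Across the 10 complexes 48 of 61 subunit pairs differed in the same direction in both libraries by more than the spread. With 2 libraries an exact permutation test of 1 pair cannot go below a two-sided p of 0.333. This count thus describes sizes against spread and carries no p. No such count over pairs of other genes stands beside it, so 48 of 61 does not set these complexes apart.

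For part of the genes much of the level lay in transcripts that are not annotated as coding. GENCODE lists 315 transcripts for the 53 genes: 136 are protein-coding, 115 retained-intron, 47 processed transcripts and 17 subject to nonsense-mediated decay, the pathway that removes mRNA with an early stop codon. Of the 43 genes with a retained-intron or decay entry, 21 (48.8%) had 10% or more of their TPM in such entries in both libraries, against 52.8% of 8365 protein-coding genes at 1 TPM that have such an entry. The median share was 10.97% in the 43 genes and 13.2% in the 8365. The members' share was thus near that of the background.

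Rfc2 and Tyms had the largest shares. In Rfc2, these entries held 95.9% of TPM in replicate 1 and 96.0% in replicate 2, and in Tyms 86.8% in both. Gins2 followed with 71.7% and 68.2% and Rfc1 with 52.9% and 56.7%, and these 4 genes were the only members at 50% or more in both libraries, where 9.75% of the 8365 genes were. The other 17 of the 21 held less than their coding entries did. Tk1 had 41.3% and 40.1%, Rpa1 34.1% and 37.9%, Pold1 34.8% and 32.0%, and Rfc5 29.7% and 32.3%. Mcm10 had 29.7% and 30.6%, Mcm3 24.99% and 23.3%, Pola2 22.6% and 25.5%, and Cdc7 22.8% and 24.3%. All 5 clamp loader genes were among the 21. Rfc3 had 21.4% and 21.6%, Pold2 21.1% and 19.6%, Rfc4 21.5% and 18.5%, and Rrm2b 19.3% and 15.1%.

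Pole was the gene whose share moved most between the libraries, with 21% in replicate 1 and 37.6% in replicate 2. It was the only member that moved by 10 percentage points or more. Prim2 had 13.99% and 16.6%, Dbf4 16.7% and 13.1%, Prim1 12.3% and 11.4%, and Orc6 11.1% and 11.8%. Orc5 with 8.42% and 13.5%, Pole2 with 10.99% and 7.24% and Cdt1 with 9.57% and 10.1% passed in 1 library only.

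**Figure D3:**
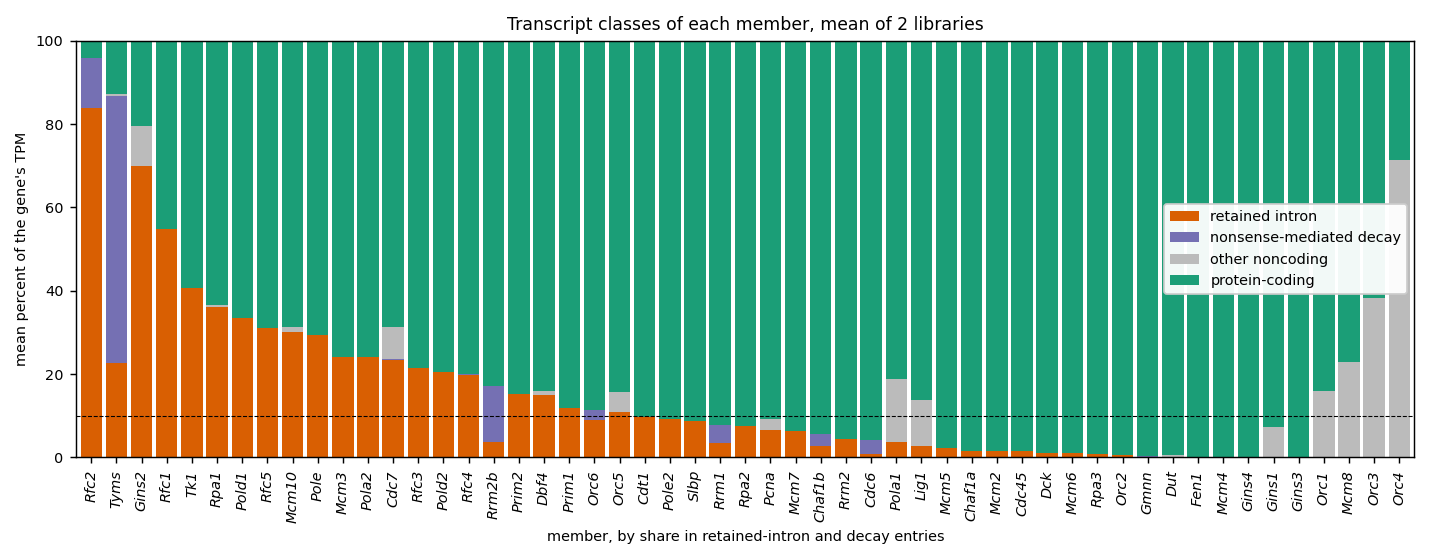
Mean percent of each gene's TPM in retained-intron (orange), nonsense-mediated decay (purple), other noncoding (grey) and protein-coding (green) entries, with a dashed line at 10%. Rfc2, Tyms, Gins2 and Rfc1 lead, and Orc4 has most of its TPM in other noncoding entries.

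Many of these entries are short and differ from the coding transcripts by few bases. The 32 entries with at least 5% of their gene's TPM in both libraries had a median length of 827 nt, where the leading coding transcripts of their 23 genes had a median of 2796 nt. Only 8 of the 32 kept a whole intron of the leading coding transcript, and 17 had fewer than 100 bases outside the coding transcripts' exons. The share by reads was below the share by TPM for 23 of the 32. Gins2-204, of 511 nt, held 70.4% and 66.2% of the TPM of Gins2 but 24.9% and 23.8% of its reads, and 16 of its bases lie outside coding transcripts. Rfc1-205, of 485 nt, held 52.3% and 56.1% of TPM and 8.80% and 10.0% of reads.

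The stretches that set some of these entries apart are shown, because their intron bases are in no annotated coding transcript of the gene. Lower case marks 30 bases of exon on each side that the entry continues, and capitals mark the intron bases. All are in the direction of the gene, from the GENCODE M21 transcript sequences on mm10. Each is the end of an entry that starts or stops in an intron, except the last, a whole intron.
Gins2-204, chr8:120586163-120586208, minus strand: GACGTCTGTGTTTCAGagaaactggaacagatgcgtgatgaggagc
Rfc4-205, chr16:23114703-23114744, minus strand: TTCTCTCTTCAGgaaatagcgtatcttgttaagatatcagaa
Pold2-204, chr11:5873125-5873191, minus strand: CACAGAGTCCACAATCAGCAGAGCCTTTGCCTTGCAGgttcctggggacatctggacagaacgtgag
Rfc1-205, chr5:65310971-65311070, minus strand: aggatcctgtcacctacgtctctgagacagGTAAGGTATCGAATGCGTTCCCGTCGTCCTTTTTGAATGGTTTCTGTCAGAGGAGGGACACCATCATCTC
Rpa1-205, chr11:75316040-75316134, minus strand: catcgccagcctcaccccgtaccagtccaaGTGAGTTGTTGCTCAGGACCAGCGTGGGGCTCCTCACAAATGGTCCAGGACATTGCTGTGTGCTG
Mcm3-203, chr1:20803625-20803721, minus strand: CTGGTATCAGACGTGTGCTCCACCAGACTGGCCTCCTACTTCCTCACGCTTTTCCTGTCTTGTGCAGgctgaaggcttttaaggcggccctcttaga
Rfc2-204, chr5:134594119-134594238, plus strand: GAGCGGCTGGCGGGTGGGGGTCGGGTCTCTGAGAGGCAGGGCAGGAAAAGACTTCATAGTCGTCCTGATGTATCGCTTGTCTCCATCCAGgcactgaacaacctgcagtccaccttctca
Pold1-209, chr7:44533768-44533914, minus strand: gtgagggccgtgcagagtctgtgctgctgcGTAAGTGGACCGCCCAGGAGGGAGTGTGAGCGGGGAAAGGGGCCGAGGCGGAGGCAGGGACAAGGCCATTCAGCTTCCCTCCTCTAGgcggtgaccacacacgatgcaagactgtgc

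The intron part of Gins2-204 is 16 bases and that of Rfc4-205 is 12 bases, so the remainder of either entry is shared with the coding transcript. Among stretches that, with their exon bases, span up to 160 bases without a splice and adjoin coding sequence, all 10 at an entry's upstream end finish in AG, the usual last letters of an intron, and all 4 at the downstream end begin with GT, the usual first letters. The upstream stretches of Prim2-203 and Rfc2-203, where a splice interrupts the sequence, do not finish in AG. Pold1-209 keeps an intron of 87 bases, and it held 24.7% and 21.4% of the TPM of Pold1 and 4.38% and 3.67% of its reads. Other whole introns were kept in Cdc7-207, with 788 bases and 28.4% and 28.8% of the reads of Cdc7, and in Prim1-202, which keeps introns of 1131 and 610 bases and held 19.9% and 18.5% of the reads of Prim1. In both of these longer entries the share by reads was above the share by TPM.

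Tyms and Rfc2 each rested on several entries. Tyms-205, a decay entry of 618 nt, held 36.6% and 34.5% of the TPM of Tyms, and Tyms-207, a decay entry of 636 nt that skips 1 exon, held 25.8% and 25.4%. Neither has a base outside the exons of coding transcripts. The coding Tyms-201, of 3163 nt, held 9.37% and 8.43% of TPM and 26.9% and 23.8% of reads. Rfc2-204, of 831 nt, and Rfc2-205, of 967 nt, held 45.9% and 46.1% and 33.0% and 31.9% of the TPM of Rfc2. The coding Rfc2-201 held 4.08% and 3.98% of TPM and 21.6% and 21.3% of reads.

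Counted by coding transcripts alone, an alternative chosen after seeing the data, the order of several genes changed. Rrm2 was first either way, with coding transcripts at 287 ± 17.0 TPM. Rfc2 had 10.8 TPM of coding transcripts and place 52 of 53, against 266.9 TPM and place 3 by gene totals. Tyms took place 39 with 35.2 TPM, against place 2 with 276 TPM, and Gins2 to place 49 with 18.1 TPM, against place 28 with 88.2 TPM. Orc4 had no retained-intron or decay entry, but 71.4% of its TPM lay in processed transcripts, and its coding transcripts summed to 29.7 TPM. In 15 of the 61 subunit pairs the order turned round, 9 of them among the 48 that had passed the spread, including all 4 pairs of Rfc2. The helicase pairs, ribonucleotide reductase and CAF-1 kept their order, except Mcm7 and Mcm6, which had not passed.

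**Figure D4:**
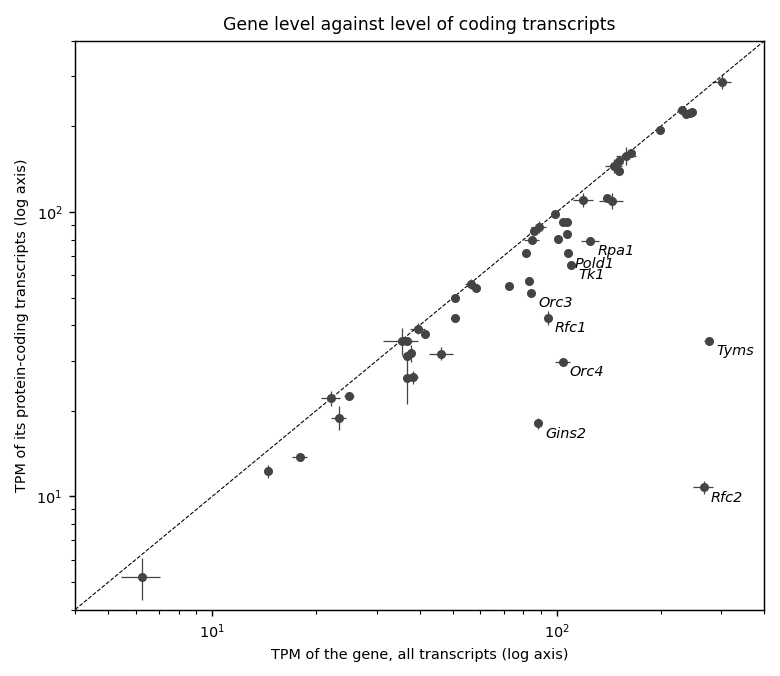
TPM of a gene's protein-coding transcripts against TPM of all its transcripts (both log axes), mean with SD bars over the 2 libraries. Points on the dashed line have all TPM in coding transcripts, and the named genes, at 1.5-fold or more below it, include Rfc2, Tyms, Gins2 and Orc4.

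The older GENCODE M4 annotation, which the authors also used, gave a similar level for most members. The ratio of M21 over M4 had a median of 0.95 in the 53 genes and 0.95 over 14912 tested genes found in both. Rfc2 was the only member that differed 1.5-fold or more, with 267 TPM by M21 and 167 TPM by M4, while 6.87% of those 14912 genes did. M4 holds 1 entry for Rfc2, of 1518 nt, with 160 and 174.8 TPM in replicates 1 and 2. This entry carries the ID of the coding Rfc2-201, so with M4 none of the level of Rfc2 lies in retained-intron or decay entries. By M4 gene totals Rfc2 is the highest of the 5 loader genes, before Rfc4 at 148.6 ± 0.665 TPM. M21 holds 6 entries for Rfc2, and lists the coding entry at 4995 nt. In 3 of the 61 subunit pairs the order differed with M4. Of these, Mcm5 over Mcm2 and Orc6 over Orc3 had passed the spread with M21, and Orc6 over Orc4 had not.

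The libraries differed little in these genes. None of the 53 was called at an adjusted p under 0.05 and a 2-fold TPM ratio by the exact two-sided binomial test on reads with Benjamini-Hochberg adjustment, where 1.07% of 15926 genes were. At 1.5-fold none was called either, against 2.71% of all. Shares as small as these leave few calls to find among 53 genes, so 0 does not set the members apart. Unadjusted, 19 members had a p under 0.05 by the exact binomial test, as did 4760 of all 15926 genes. The edgeR exact test with a common dispersion gave 0 members unadjusted and 0 adjusted, and 178 genes of all after adjustment. Its dispersion was estimated from these same 2 libraries taken as replicates. The result of that test is therefore not independent of the difference it tests. Without a minimum of fold, 13 of 53 (24.5%) were past the adjusted threshold, against 19.2% of all genes, 3 with the higher TPM in replicate 1 and 10 with the lower. These tests compare the reads of 2 pools and not conditions.

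Rrm2 and Mcm3 had the smallest p among those 13. The log2 ratio of Rrm2, replicate 1 over replicate 2 on the log2(TPM + 1) scale, was -0.13 (exact binomial adjusted p = 4.10e-08), and that of Mcm3 was 0.16 (exact binomial adjusted p = 3.67e-07). The others were Rfc2, Pola1, Rpa2, Mcm7, Cdc7, Rfc1, Lig1, Dut, Tyms, Fen1 and Rpa3. Lig1 was past it with more reads in replicate 1, 3840 against 3634 in replicate 2, although its TPM was the lower there. No member went beyond the spread of genes at its own level. Ratios of the 53 ran from -0.23 for Orc2 to 0.16 for Mcm3, with a median of -0.05 against -0.01 over all tested genes.

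More members were lower in replicate 1 than in the whole table. By deposited TPM 40 of 53 were lower in replicate 1, or 75.5%, against 53.1% of all tested genes. Spike-ins took 7.34% of TPM in replicate 1 and 5.13% in replicate 2. With TPM rescaled to gene entries, 30 of 53 were lower in replicate 1 and 23 higher, and 44.3% of all tested genes were lower. All 3 Rrm genes and all 3 Rpa genes were lower in replicate 1 by deposited TPM. So were all 4 GINS genes, Chaf1a and Chaf1b, Lig1 and Fen1, Mcm8 and Mcm10, and 5 of the 6 helicase genes. Pole and Pole2 were higher in replicate 1, and the remaining groups with more than 1 gene were mixed.

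**Figure D5:**
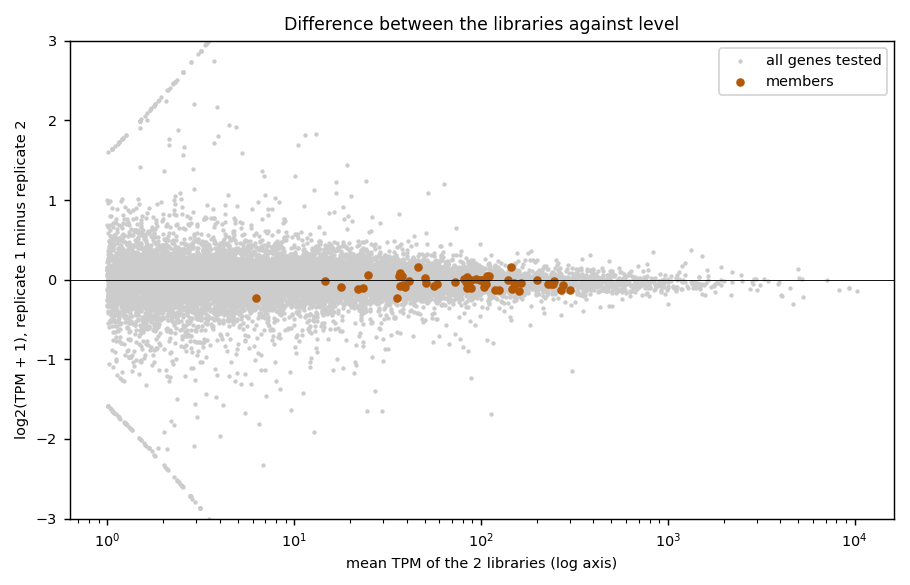
Difference of log2(TPM + 1), replicate 1 minus replicate 2, against mean TPM (log axis) for 15926 genes (grey) and the 53 members (brown). The 53 stay within -0.23 and 0.16, and 30 genes lie outside the plotted range of 3 on either side.

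Partner genes outside the 53 were looked up by symbol. Of the further replication genes listed, 42 of 43 symbols were found, as 43 entries, and And1 had no match as a symbol. A gene annotated under another symbol would not be found this way, so And1 is not shown to be absent. Their median was 68.5 TPM and each entry reached 1 TPM in either library. Chtf8 has 2 entries, so its reads may be split between them. Rbbp4, a histone chaperone of CAF-1, was highest at 467 ± 22.6 TPM, before the topoisomerase gene Top2a at 279.8 ± 12.6 TPM and Ssrp1, a part of the histone chaperone FACT, at 263 ± 0.658 TPM, and the helicase gene Recql4 was lowest at 10.1 ± 0.559 TPM. All 39 further nucleotide genes reached 1 TPM, with a median of 63.2 TPM. They were led by thioredoxin Txn1 at 346 ± 18.1 TPM, the purine synthesis gene Paics at 311 ± 7.09 TPM and the purine salvage gene Aprt at 239 ± 6.96 TPM, and the nucleotide kinase gene Cmpk2 was lowest at 6.19 ± 0.134 TPM.

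The median of the regulators was lower than that of the 53. All 20 listed E2F, DP, RB, Myc and related genes reached 1 TPM, with a median of 24.0 TPM, and 1 reached 100 TPM. This was the E2F partner gene Tfdp1 at 148 ± 1.42 TPM, followed by Mycn at 96.5 ± 9.35 TPM and the E2F gene E2f4 at 65.8 ± 7.78 TPM, and E2f2 was lowest at 8.47 ± 0.255 TPM. The 32 mitosis genes had a median of 92.0 TPM, close to that of the 53. They were led by the ubiquitin-conjugating enzyme gene Ube2c at 457 ± 29.7 TPM, the kinase gene Cdk1 at 352 ± 8.82 TPM and the centromere histone gene Cenpa at 332 ± 25.3 TPM, with the kinesin gene Cenpe lowest at 31.3 ± 0.311 TPM. These are gene totals. Decay or retained-intron entries held 76.3% and 76.7% of the TPM of Cenpa in replicates 1 and 2. They held 42.5% and 35.2% of that of Cdk1 and 0% of that of Ube2c.

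By position, 1 chromosome carried many of the 53 genes. Chromosome 5 carries 12 of them (22.6%), where it carries 6.09% of 13028 protein-coding genes at a mean of 1 TPM. These are Rfc1, Rfc2, Rfc3, Rfc5, Mcm7, Cdc7, Dbf4, Orc5, Pole, Slbp, Dck and Tyms, and 4 of the 5 loader genes are among them. This count describes the list, whose members were chosen by role.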

How the data were processed

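Gene and transcript tables of 2 libraries were used. The authors deposited expected counts of genes and transcripts in the column layout of RSEM, together with TPM, FPKM and each transcript's percent of its gene. Annotations were GENCODE M21 (main) and M4 on mm10, per the labels and file headers. For the aligner, the program versions and any use of strand, nothing is stated in the sources used here.

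Expected counts were rounded for the tests. Genes at a mean of 1 TPM were tested by an exact two-sided binomial test with TMM library sizes (edgeR 4.0.16), adjusted by Benjamini-Hochberg over 15926 genes. On simulated libraries with 15926 genes it recovered 99% of 101 genes given a 3-fold change and 99% of 99 given a 5-fold change, and called 22 of 15726 unchanged ones. The changed genes were drawn from those at a mean of 5 TPM or more. Library sizes and folds there came from total counts, not from TMM and TPM. Recovery of 2-fold changes, and of changes below 5 TPM, was not simulated. Counts and p-values cover counting error between pools. Transcript shares are percent of the gene's summed TPM. DESeq2 1.42.0 gave alternative size factors. Members and lists were chosen with earlier results of these data known. Every member is named, with values per library for the highest and lowest of each group, for shares of 10% or more and for preset key genes, and from other lists the 3 highest and the lowest gene. Protein sequences were not used here.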

Additional observations from a re-analysis of the deposited data

How the results depend on the processing

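The counts of members at 1 TPM and of subunit pairs stayed within 1.5 times under each alternative tried. There were 52 members at 10 TPM and 47 to 52 pairs past the spread. A pair that passed in the opposite direction still counted, so a stable count is not a stable order. M4 turned the order of 3 of the 61 pairs, 2 of which had passed. Coding transcripts alone turned 15, of which 9 had passed. The median log2 ratio of replicate 1 over replicate 2 was -0.05 and stayed below 0, but was -0.014 with TPM over gene entries, -0.023 with TMM-scaled counts and -0.027 with coding transcripts only. The median TPM of 88.5 was 92.3 with M4, 94.3 with TPM over gene entries, 96.6 without the mitochondrial genome, and between 88.1 and 91.5 when 1 replicate was left out, and 57.3 with coding transcripts only. Without a fold minimum 13 members were called and not 0. With a 25% share 9 genes passed and not 21, with the share of expected counts 14, and with M4 17. In M4, 87.9% and 89.5% of the TPM of Rfc1 lay in entries with no M21 match, and Rfc1 was not counted. The share of all genes is not given for these settings, so these counts do not set the members apart. Rfc2, which has the highest share with M21, had 0% with M4, as had Pola2 and Orc6. With the 7-letter core 27 members (61.4%) held an E2F match and not 15, against 10.9% of all genes and 19.8% of protein-coding genes at 1 TPM. With coding transcripts only, the log2 ratio of Rfc2 over Rfc5 was -2.41 (1.68 by gene totals), that of Tyms over Tk1 -0.89 (1.33) and that of Gins2 over Gins3 -0.29 (2.00). The cause of these changes was not tested. The coding-only alternatives and those of the ratios were chosen after seeing the data. In all, 37 alternatives of the main results gave a like value and 8 moved it, and among named ratios 27 gave a like value, 10 moved and 3 turned. Reads that overlap genes of the other strand could not be separated. No paired analysis was possible because there is 1 group, whose replicates share no number with a second group.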
